A study of Homo sapiens with 2 samples.

Results

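Open-sea intergenic CpGs are the CpG dinucleotides that lie outside CpG islands and their flanks and between genes. They were taken here as the autosomal positions that the deposited annotation marks as intergenic, with no CpG island, shore or shelf and no promoter, and that had at least 10 reads in both libraries. This rule found 150091 of the 2532174 positions with that coverage, and the annotation alone found 158021 autosomal positions at any coverage. Whole methylated reads could be recovered for 149693 of the members, and the other 398 had fractional coverage. The members spread over 33611 windows of 1 kb and 8496 intervals between a pair of annotated genes.

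CpG methylation is copied at cell division by DNMT1 and set anew by DNMT3A and DNMT3B, while TET enzymes start its removal. In most differentiated cells, CpGs far from islands and promoters are highly methylated, and local dips often mark enhancers and other sites bound by transcription factors. Cancer cell lines can in addition lose methylation over long, gene-poor stretches known as partially methylated domains. A capture panel samples only chosen pieces of this space, so the members stand for the targeted open-sea sequence and not for intergenic DNA at large.

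The cells were SH-SY5Y, an established human neuroblastoma line. One culture group received DMSO, the solvent that served as control and is named "with DMSO" or "control" below, and the other received Mdivi-1, a small molecule described as an inhibitor of the mitochondrial fission GTPase DRP1. Each group held 1 library of methyl-captured, bisulfite-converted DNA, 2 libraries in all, so no difference between them has a replicate check and no test compares the treatments. The labels used here give no dose or exposure time, and with DNA alone the identity of the line could not be checked against expression markers. Errors below cover the counting of reads and not the spread between cultures.

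Median coverage of the members was 36 reads with DMSO and 45 with Mdivi-1, and mean coverage was 41.9 and 52.5 reads. Coverage in the control reached from 10 to 451 reads. CpGs whose lower coverage was exactly 10 reads, just inside the rule, were at 41.6% with DMSO and 42.2% with Mdivi-1, and those at 9 reads, just outside it, were at 40.5% and 41.5%. The rule itself keeps members away from island flanks and promoters, so their distances check only that the annotation was read as meant. The nearest measured island CpG was at least 4002 bp away, with a median of 42789 bp, and the nearer annotated gene was 1001 bp to 1337540 bp away, with a median of 23851 bp. Members came in clusters rather than alone, and 92.3% had another measured CpG within 100 bp.

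The captured open-sea intergenic CpGs were on average less than fully methylated and split into low and high groups. Mean methylation was 40.7% with DMSO and 41.3% with Mdivi-1, with medians of 31.6% and 32.4%. CpGs under 10% made up 38.0% of the members in both libraries. Those over 90% made up 16.2% with DMSO and 18.1% with Mdivi-1, and the remaining 45.8% and 44.0% lay between. Both libraries therefore showed the same shape, a tall peak near 0 and a lower one near 100%.

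Because such shares move with depth, each CpG was also thinned to 10 reads in both libraries. CpGs with 0 of 10 reads methylated were then 31.4% with DMSO and 31.3% with Mdivi-1. CpGs with 10 of 10 reads methylated were 11.4% and 12.9%, so at equal depth the libraries lay further apart at the high end than at the low end. Of 56936 members under 10% in the control, 93.3% were under 10% and 98.96% under 20% with Mdivi-1. Of 24180 members over 90% in the control, 78.4% were over 90% and 97.1% over 80% with Mdivi-1. A level from under 20% to over 80% was seen for 0 members, and the reverse for 1. Unmethylated in every read of both libraries were 14484 members, or 9.68%, against 1264 members, or 0.844%, methylated in every read.

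**Figure D1:**
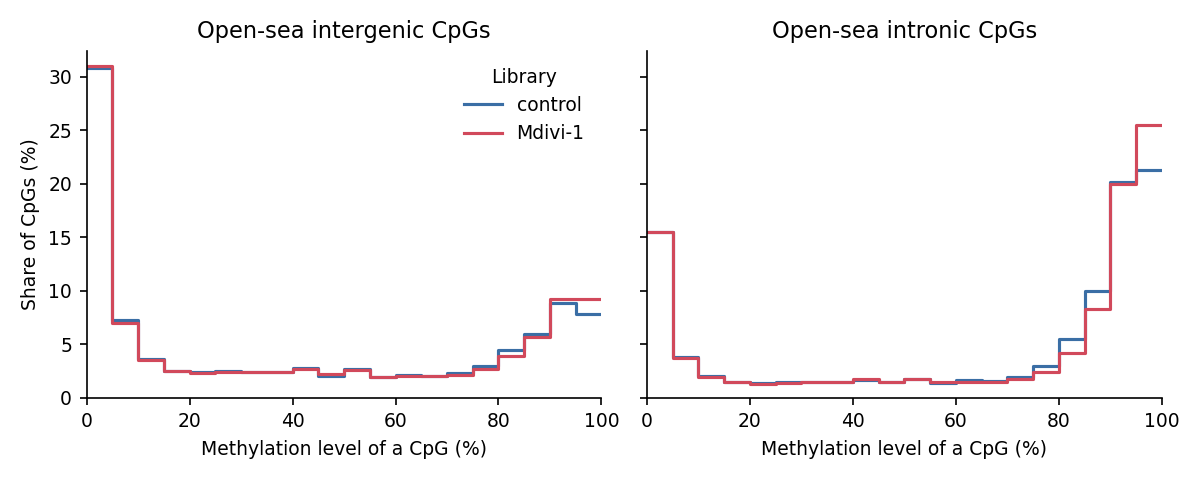
Share of CpGs (vertical axis, percent) by methylation level in steps of 5 percentage points (horizontal axis) for open-sea intergenic CpGs on the left and open-sea intronic CpGs on the right, with the control library in blue and the Mdivi-1 library in red. Intergenic CpGs peak near 0, with 38.0% of them under 10% in both libraries, whereas intronic CpGs peak near 100%.

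Their low level set these CpGs apart from the open-sea CpGs inside introns. The 277580 open-sea intronic CpGs away from promoters were at 64.3% with DMSO and 65.1% with Mdivi-1, so the intergenic members were 23.6 points lower in the control. The gap had the same direction on each of the 22 autosomes, from -18.9 points on chromosome 1 to -40.2 points on chromosome 22. It was also present at every depth: among CpGs of 10 to 19 reads the control levels were 40.2% and 62.6%, and among those of 50 to 99 reads they were 41.1% and 65.6%. Of 1 kb windows with at least 5 members, 24.1% had a mean level under 10% and 17.9% over 80%, against 11.6% and 51.3% of intronic windows. Which regulatory or other elements the panel targets in each class was not tested.

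Other intergenic classes were much closer. Intergenic island shores and shelves, 104108 CpGs, were at 42.4% with DMSO and 42.9% with Mdivi-1, and intergenic CpG islands, 89815 CpGs, at 40.9% and 41.4%. In the control the members were 1.71 points below the shores and shelves and 0.207 points below the islands. On 13 of the 22 autosomes they were below the islands of that chromosome. With 1 library per group none of these gaps has a test over samples.

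Between the libraries, the members were slightly more methylated after Mdivi-1. The mean difference was 0.539 percentage points. Its counting error was 0.0200 points when CpGs are taken as independent and 0.0700 points when the CpGs of a 1 kb window are taken to share all their reads. Higher with Mdivi-1 were 47.4% of members, lower 41.5% and equal 11.1%. Open-sea intronic CpGs differed by 0.777 points, intergenic shores and shelves by 0.421 points and intergenic islands by 0.420 points. All CpGs of the table together differed by 0.460 points, with 44.4% higher and 38.7% lower, so the members lay close to the table as a whole. The members' difference was below that of intronic CpGs on 19 of 22 autosomes. Pooling all reads, which weights deep CpGs more, gave 0.357 points for the members.

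The difference was positive on each of the 22 autosomes, from 0.103 points on chromosome 18 to 0.930 points on chromosome 20, with a median of 0.544 points, although chromosome 9 turned from 0.442 to -0.107 points with all reads pooled. Pooling also moved chromosome 1 to 0.294 points, chromosome 12 to 0.155 points, chromosome 18 to 0.379 points and chromosome 22 from 0.111 to 0.518 points. Chromosomes 18 and 20 held only 395 and 1297 members. Taking windows as shared blocks, 6 autosomes differed from 0 by more than 2 counting errors and 16 did not. Chromosome 2, with the most members, 16241, was at 45.0% with DMSO and 45.6% with Mdivi-1, a difference of 0.600 points with a block error of 0.198 points. Chromosome 1 differed by 0.506 points over 14128 members and chromosome 12 by 0.294 points over 7495. The order of the autosomes by difference therefore lies mostly within counting error.

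Levels varied far more between autosomes than between libraries. Chromosome 4 had the highest level, 49.4% with DMSO and 49.9% with Mdivi-1, followed by chromosome 3 at 45.6% and 46.2%. Chromosome 19, which is gene-dense, had the lowest at 21.9% and 22.4% over 881 members, followed by chromosome 22 at 25.5% and 25.6% over 1104 members and chromosome 20 at 26.9% and 27.8%. Chromosome 16 was at 35.4% and 35.9% over 8397 members. The open-sea intronic level of the same chromosomes did not follow this order, being 58.2% on chromosome 19, 65.7% on chromosome 22 and 67.2% on chromosome 16 in the control.

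**Figure D2:**
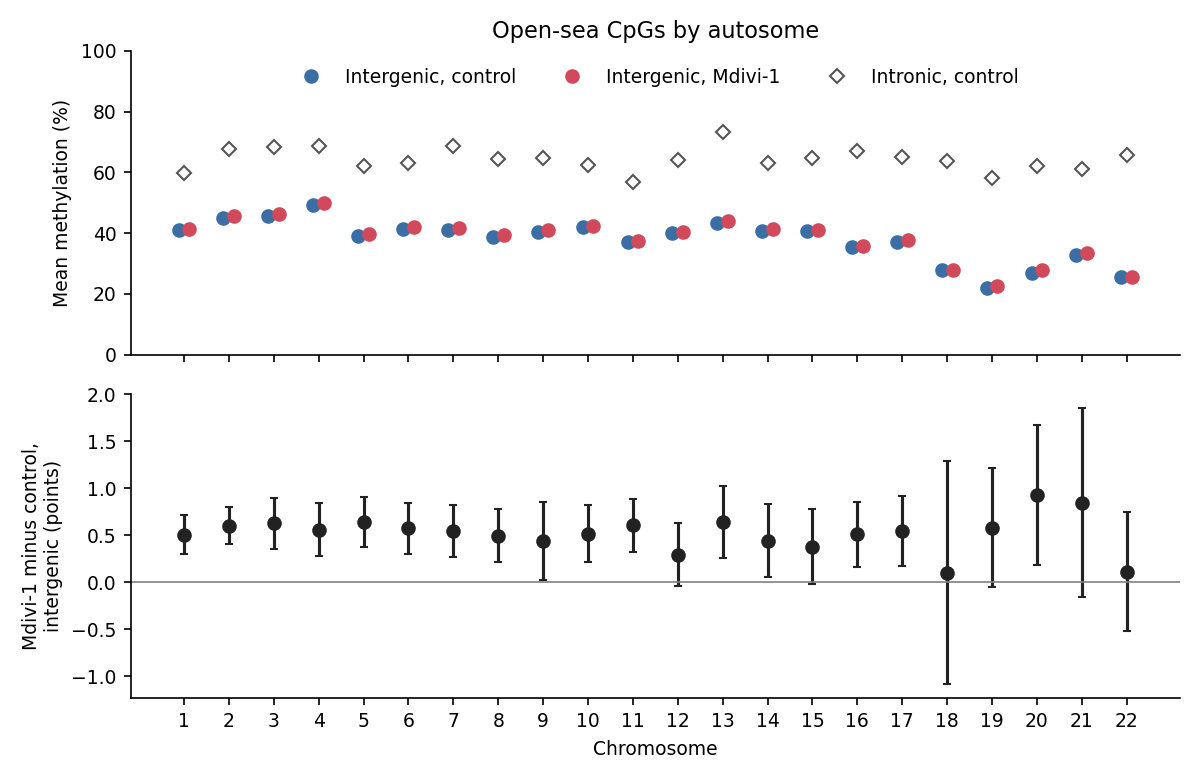
Upper panel, mean methylation (percent) of open-sea intergenic CpGs in the control (blue) and Mdivi-1 (red) libraries on each autosome, with open-sea intronic CpGs of the control as open diamonds. Lower panel, the Mdivi-1 minus control difference of the intergenic CpGs in percentage points, with bars of 1 counting error for windows of shared reads; all 22 points lie above 0, from 0.103 to 0.930 points.

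Over all autosomes together, members close to an annotated gene were more methylated than those far from any. Members under 5 kb from the nearer gene were at 46.5% with DMSO and 47.1% with Mdivi-1, and those at 5 to 20 kb at 42.6% and 43.2%. At 20 to 50 kb the levels were 39.3% and 39.6%, at 50 to 200 kb 37.4% and 37.9%, and at 200 kb or more 38.0% and 38.5%, so the decline ended there. Within single autosomes, members under 5 kb were higher in the control than those at 50 kb or more on 20 of 22, with a median gap of 11.4 points, and lower on chromosomes 13 (-1.28 points) and 21 (-7.06 points). The library differences of the same classes were 0.694, 0.608, 0.335, 0.587 and 0.499 points, with block errors of 0.122 to 0.264 points, and had no such order. Mean coverage moved little, from 42.3 reads in the nearest class to 40.7 reads in the farthest in the control.

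The range was smaller by distance from islands, with control levels of 41.7% under 10 kb from a measured island CpG, 41.6% at 10 to 50 kb, 39.1% at 50 to 200 kb and 40.9% at 200 kb or more. Local spacing showed a larger range: members with another measured CpG under 10 bp away were at 46.1% in the control, against 35.5% at 25 to 50 bp, 34.5% at 50 to 100 bp and 38.6% at 100 bp or more. Members whose nearer gene is protein-coding were at 42.1% in the control, those next to a long noncoding RNA gene at 38.4%, next to a pseudogene at 41.8% and next to a microRNA gene at 36.2%. Within 5 Mb of a chromosome end, where 27.2% of members lay, the control level was 38.5%, against 41.6% elsewhere, and it was the lower of the 2 on 14 of 22 autosomes. Open-sea intronic CpGs were at 65.9% near the ends and 63.7% elsewhere. The Mdivi-1 library was higher in every class named here by distance, spacing, biotype or chromosome end, by 0.335 to 0.694 points.

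Levels also differed from region to region. In 879 bins of 1 Mb with at least 50 members, the control level ran from 1.47% to 91.8%, with quartiles of 26.0% and 53.0% and an SD over bins of 19.5 points. The 2 libraries gave nearly the same map, with a Pearson r of 0.998 over these 879 bins, which share their positions. The bin differences had an SD of 1.12 points, ran from -6.00 to 4.78 points and were positive in 615 of the 879 bins. Over 631 bins that also had at least 50 open-sea intronic CpGs, the intergenic level was the lower in 86.2%, with a median gap of -23.0 points. The 2 levels correlated across those bins with a Pearson r of 0.433, given as a description since bins share libraries and base composition.

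The bins at the extremes were as follows. The lowest lay between GALNT17 and CALN1, a glycosyltransferase gene and a neuronal calcium-binding protein gene (chromosome 7, 71198386 to 71217766, hg19), with 52 members at 1.47% with DMSO and 1.82% with Mdivi-1. Members next to MIRLET7BHG, the host transcript of let-7 microRNAs (chromosome 22, 46407690 to 46477777), were at 3.14% and 3.26%. Members from OR7A17, an olfactory receptor gene, to CYP4F2, a cytochrome P450 gene (chromosome 19, 15037251 to 15982654), were at 2.88% and 3.002%. The highest bin ran from TRIML2 to HSP90AA4P near the end of chromosome 4 (189048530 to 189956983), with 242 members at 91.8% with DMSO and 92.8% with Mdivi-1. Members from TMEM248P1 to INTU on the same chromosome (127028047 to 127999838) were at 91.5% and 91.4%, and those from LOC100129203 to FAM76B (chromosome 11, 95015467 to 95500779) at 89.7% and 91.7%.

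Single gaps between genes showed the same contrasts. The intervals described here were chosen after their values were seen. Of 187 intervals with at least 100 members, 24 were under 20% with DMSO and 13 over 70%. The interval with most members, between MIR5093 and GSE1, a coiled-coil protein gene (chromosome 16, 85343282 to 85635553), held 749 CpGs at 42.0% with DMSO and 42.7% with Mdivi-1, and its windows ranged from 0.216% to 94.9% in the control. Between ALG10, an N-glycosylation gene, and TUBB8P5 (chromosome 12, 34190162 to 38552725), 701 CpGs were at 18.1% in both libraries. Between TTC34 and ACTRT2 (chromosome 1, 2722696 to 2934498), 650 CpGs were at 12.6% and 12.9%. By contrast, 248 CpGs between PDE10A, a cyclic nucleotide phosphodiesterase gene, and LINC00473 (chromosome 6, 166083605 to 166335960) were at 91.7% and 92.8%. Between MYT1L, a neuronal transcription factor gene, and LINC01250 (chromosome 2, 2402291 to 2893769), 452 CpGs were at 57.1% and 57.9%. The library difference was positive in 132 of the 187 intervals and negative in 55, from -2.96 to 3.5002 points, and exceeded 2 block errors in 0 of them.

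Many 1 kb windows of intermediate mean level held both low and high CpGs. Of 10113 windows with at least 5 members, 4822 had a mean level of 20 to 80%. In the control, 2569 of these, or 53.3%, held both a CpG under 20% and a CpG over 80%, and with Mdivi-1 2595, or 53.8%. In 2192 windows at least 1 CpG was under 20% in both libraries and at least 1 other was over 80% in both. A further 185 windows, or 3.84%, had every CpG at 20 to 80% in the control. The remaining windows were in neither group. A mixed window needs only 1 low and 1 high CpG, whereas the other group needs every CpG to be intermediate. Their shares therefore cannot be ranked against each other. The median SD over the CpGs of such a window was 27.6 points in each library. Open-sea intronic windows of this level were alike, with 2980 of 5958 mixed in the control. DNA of many cells was pooled in each library, so an intermediate level of 1 CpG cannot be told apart as a mixture of cells or of alleles.

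CpGs of intermediate level were set aside, and changes of state were counted along the low and high CpGs left in each window. In 1474 of the 2569 mixed windows, or 57.4%, low and high CpGs were separated by a single change. Another 12.3% had 3 or more changes. A window left with a lone low and a lone high CpG has a single change by construction. How often a random order would give a single change was not tested, so these shares alone do not show ordered states. Open-sea intronic mixed windows gave similar shares, 57.4% and 11.3%. The distance between the low and high CpG that flank a single change was 63 bp in the median window, with quartiles of 40 and 106 bp. CpGs that were set aside can lie within it. With Mdivi-1, 1147 of the 1474 windows, or 77.8%, also had a single change in the same direction, whose position was not compared.

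Some of the windows with most members show this at the level of CpGs. Between LINC02693 and NCOR1P2, a pseudogene of the corepressor NCOR1 (chromosome 17, 21477099 to 21477998), 48 positions of 35 CpGs, some measured on both strands, averaged 39.2% with DMSO and 38.7% with Mdivi-1. The 21 positions (14 CpGs) up to 316 bp from the first averaged 85.9% and 85.2%, and the 27 positions (21 CpGs) after it averaged 2.91% and 2.45%. With reads pooled the window difference was -2.33 points in place of -0.573. No position of this window differed between the libraries by more than 18.1 points. Between SORL1, a neuronal sorting receptor gene, and MIR100HG, a microRNA host gene (chromosome 11, 121593021 to 121593906), the window mean was 19.2% and 18.9% over 46 CpGs. The difference of -0.267 points was -2.49 points with reads pooled and 0.0247 points with the deposited fractions. Its first 4 CpGs averaged 91.6% and 89.3%, and 33 of its CpGs were under 10% in each library.

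Other windows alternated. Between HIVEP3, a zinc finger transcription factor gene, and GUCA2B, which encodes uroguanylin (chromosome 1, 42506010 to 42506979), 48 positions of 43 CpGs averaged 52.2% with DMSO and 56.3% with Mdivi-1 and ran from 0 to 100% in both, with a correlation of 0.964 between the libraries across these positions. The window with most members, 51 CpGs between EEF1DP4 and the zinc finger gene ZNF273 (chromosome 7, 64342105 to 64342998), averaged 69.7% and 73.2%. Its difference of 3.45 points compares with a counting error of 1.097 points if CpGs are independent and 7.83 points if they share reads, and 29 CpGs were higher and 20 lower. With the reads of the window pooled it was 1.38 points. Between LINC02667 and MGMT, a DNA repair gene (chromosome 10, 130844077 to 130844913), 44 CpGs averaged 54.6% and 52.7%, a difference of -1.88 points that was -0.0177 points with reads pooled. Many CpGs of the ZNF273 and MGMT windows were intermediate. In the control, 23 of 51 CpGs were over 80% and 1 under 20% in the first, and 9 and 6 of 44 in the second. The libraries correlated at 0.937 and 0.959 across the CpGs of these windows, so lower and higher levels were at much the same CpGs in both.

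**Figure D3:**
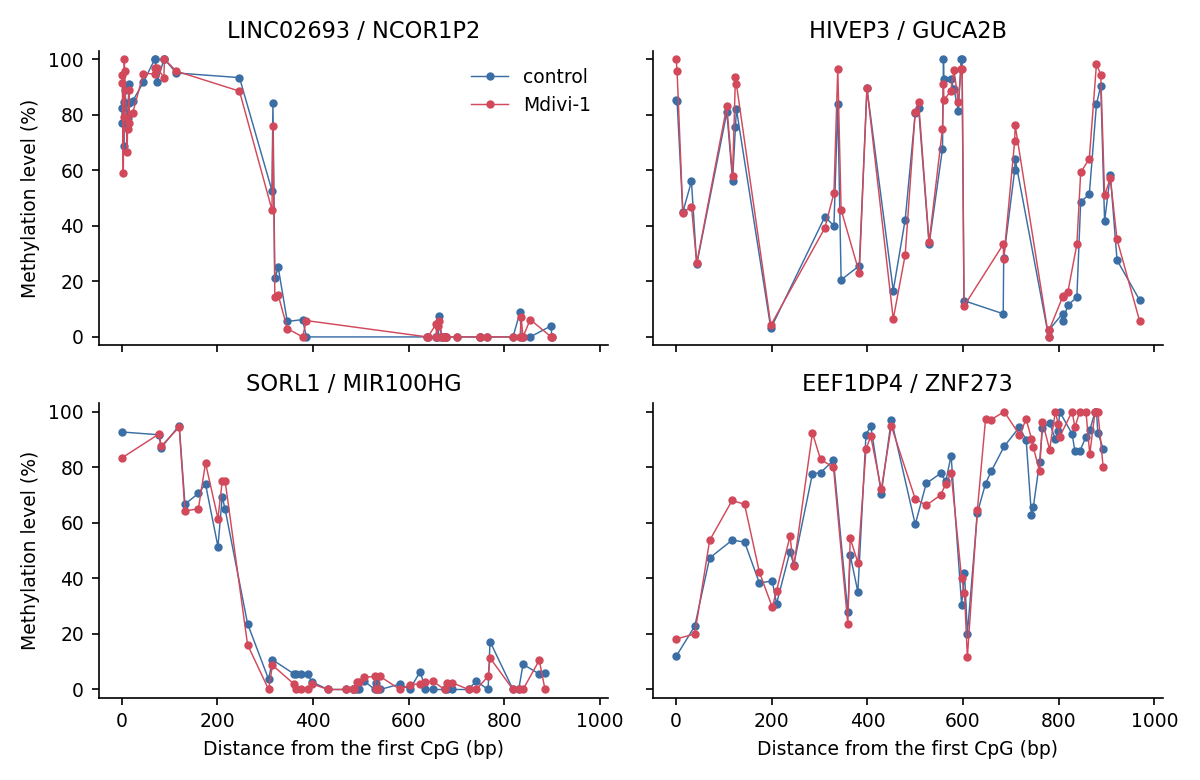
Methylation level (percent) of each measured position against its distance in bp from the first CpG in 4 of the windows with most members, each panel named by the flanking genes, with the control library in blue and the Mdivi-1 library in red. In the LINC02693 / NCOR1P2 window the level drops from a mean of 85.9% to 2.91% with DMSO and from 85.2% to 2.45% with Mdivi-1. Levels in HIVEP3 / GUCA2B go up and down along the window, with 17 of 48 positions over 80% and 11 under 20% in the control.

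Likeness between CpGs decayed over short distances for the difference and over long ones for the level. Successive members 2 to 10 bp apart had a Pearson r of 0.907 for the control level (30550 pairs), those 50 to 100 bp apart 0.669 and those 1000 to 5000 bp apart 0.430. For the Mdivi-1 minus control difference, r was 0.348 at 2 to 10 bp, 0.118 at 25 to 50 bp, 0.0631 at 50 to 100 bp and between -0.0269 and 0.0271 in all classes from 100 to 5000 bp. Pairs this close share reads. Between windows, the control level correlated at 0.602 for neighbours 1 kb apart, 0.318 at 10 to 50 kb and 0.213 at 200 to 1000 kb, while the difference gave 0.0812 at 1 kb and under 0.02 in size beyond. These values describe the libraries and carry no test.

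Both strands of the same CpG were measured in 643 cases, which gives 2 sets of positions on 1 site. Their levels correlated at 0.954 with DMSO and 0.966 with Mdivi-1, and differed on average by 7.69 and 6.66 points. The library difference of the strands correlated at -0.0717 and had the same sign in 252 cases and the opposite sign in 249. At single CpGs the level thus recurred on the other strand and the library difference did not. For the difference the comparison could show little. Over all members its root mean square was 8.01 points, and counting reads at equal levels would give 7.75 points.

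The next comparison asked which windows differed between Mdivi-1 and control. A window met the rule of size when it had at least 5 members, a mean that differed by 10 points or more, and when 80% or more of its CpGs differed the same way. Among 10113 windows, 109 were higher and 53 lower with Mdivi-1, 162 or 1.60% in all. Over all 123163 such windows of the table, 0.58% were higher and 0.373% lower, 0.953% in either direction. The members' share was above this background. Windows at 20 to 80%, where counting error is largest, made up 47.7% of the members' windows and 35.2% of all windows of the table. Among windows at that level, 2.90% of the members' met the rule, 2.19% of the table's and 3.05% of open-sea intronic ones. The members thus stayed above the table within this class, and the cause was not tested. The windows that met the rule had a median coverage of 24.1 reads with DMSO and 31 with Mdivi-1, against 37.6 and 46.7 for all, and a median of 6 CpGs against 8.

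Of the 162 windows, 140 or 86.4% were at 20 to 80%, and 11 differed by at least 20 points. Those higher with Mdivi-1 had median levels of 41.3% with DMSO and 56.8% after Mdivi-1, and those lower had 50.3% and 37.5%. Of all windows, 5761 were above 0 and 4337 below, with a median of 0.362 points and the central 90% between -5.06 and 6.42 points. The SD of window differences was 3.64 points, which lies between the root mean square counting error for independent CpGs, 2.80 points, and that for fully shared reads, 8.76 points. Windows next to one that met the rule differed in the same direction in 26 of 45 cases, with a median of 1.28 points. A minimum of 20 reads left 65 higher and 31 lower windows, and a minimum of 10 CpGs left 18 and 10.

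**Figure D4:**
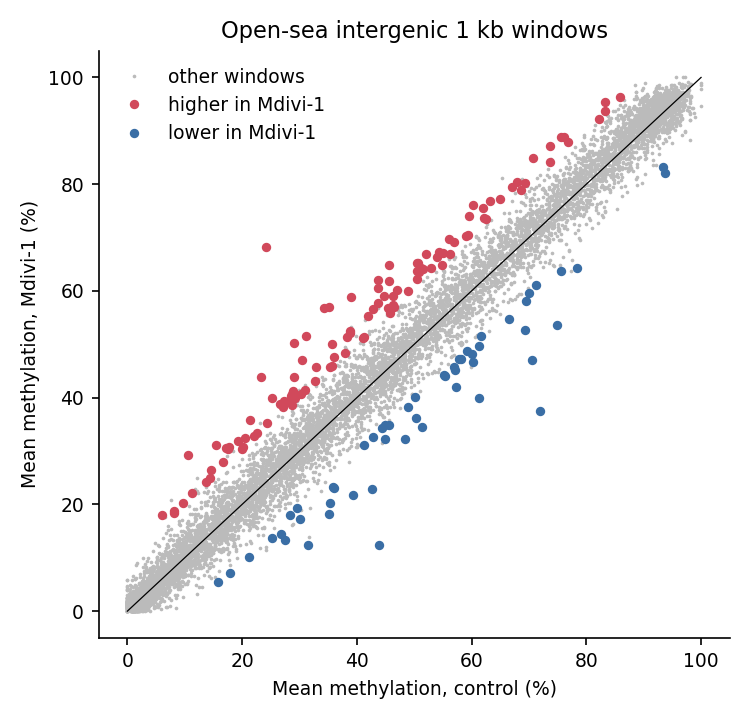
Mean methylation (percent) of each 1 kb window with at least 5 open-sea intergenic CpGs in the control (horizontal) and Mdivi-1 library (vertical), with the diagonal of equal levels. The 109 red points and 53 blue points met the rule of size as higher and lower with Mdivi-1 and lie mostly at intermediate levels; the other windows are grey.

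The window of largest gain lay between NVL, a ribosome biogenesis ATPase gene 10878 bp away, and CNIH4, a cargo receptor gene of the early secretory pathway (chromosome 1, 224528769 to 224528876). Summed over its 9 CpGs, 36 of 145 read calls were methylated with DMSO and 65 of 95 with Mdivi-1. A read counts here once for each CpG it covers. Single CpGs had 13 to 20 reads with DMSO and 10 to 12 with Mdivi-1. CpG levels ran from 13.3 to 37.5% with DMSO and from 60 to 81.8% with Mdivi-1, so the 2 sets did not overlap. The mean difference of 44.1 points compares with a counting error of 6.52 points if CpGs are independent and 19.7 points if they share reads.

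The next largest gain lay 179069 bp from NFIA, a nuclear factor I transcription factor gene, and 12286 bp from MGC34796 (chromosome 1, 62107529 to 62107628), with 34.3% with DMSO and 56.8% with Mdivi-1 over 9 CpGs. A window between LINC01970 and the T-cell surface protein gene CD7 (chromosome 17, 80261093 to 80261213) was at 35.2% and 57.0% over 10 CpGs, 8 of them higher. Between MIR1270 and the zinc finger gene ZNF737 (chromosome 19, 20607725 to 20607772), 5 CpGs were at 20.8 to 33.3% with DMSO and 34.1 to 61.1% with Mdivi-1, again without overlap. The other windows among the 8 largest gains lay between C1orf94 and MIR552 (20.6 points), REELD1 and the transporter gene SLC10A7 (20.3 points), BAK1P2 and MIR8052 (19.9 points) and FLJ40288 and LOC100506937 (19.3 points). Their CpG levels overlapped between the libraries, although every CpG was higher after Mdivi-1 in the windows of C1orf94, REELD1, BAK1P2 and FLJ40288.

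The window of largest loss lay between LINC02370 and LINC02414 (chromosome 12, 131927877 to 131927936), with 54 of 78 read calls methylated with DMSO and 55 of 149 with Mdivi-1. Its 5 CpGs averaged 71.9% and 37.5%, a difference of -34.4 points with counting errors of 6.96 and 15.6 points. This window and that of NVL were the only 2 of the 10113 whose difference exceeded the 95% counting interval for shared reads. That interval is for a single window and makes no allowance for the choice of the largest differences among all windows. Between SH3BGRL2 and LINC01621 (chromosome 6, 80487825 to 80487961), 14 CpGs ran from 25 to 54.5% with DMSO and from 0 to 20% with Mdivi-1. Of their read calls, 78 of 177 and 26 of 211 were methylated. All 14 were lower and the 2 sets did not overlap, at 10 to 15 reads per CpG in the control.

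A deeper window lay between SMURF2P1-LRRC37BP1 and SUZ12P1, a pseudogene of the Polycomb gene SUZ12 (chromosome 17, 29013677 to 29013769). It had 223 of 321 read calls methylated with DMSO and 188 of 399 with Mdivi-1. Its mean levels were 70.5% and 47.1%, with 11 of 12 CpGs lower. Whether reads from near-identical copies reach this window was not tested. Between ANO6, a phospholipid scramblase gene, and LINC00938 (chromosome 12, 46005116 to 46005169), 8 CpGs were at 66.7 to 84.6% with DMSO and 45.8 to 61.5% with Mdivi-1, without overlap. The remaining losses lay between LYZL2 and SVIL2P (-21.3 points), LOC285766 and the phosphatase gene DUSP22 (-19.7 points), LINC02422 and RPL12P32 (-19.1 points) and IRF8, a myeloid transcription factor gene, and LINC01082 (-17.6 points). At a minimum of 20 reads, 7 of these 16 windows held no CpG, 9 were measured and 2 of them with 5 or more CpGs. LINC02422 to RPL12P32 then differed by -1.15 points on 1 CpG. FLJ40288 to LOC100506937 differed by 33.1 points on 2 CpGs, and LYZL2 to SVIL2P by -34.1 points, also on 2 CpGs.

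**Figure D5:**
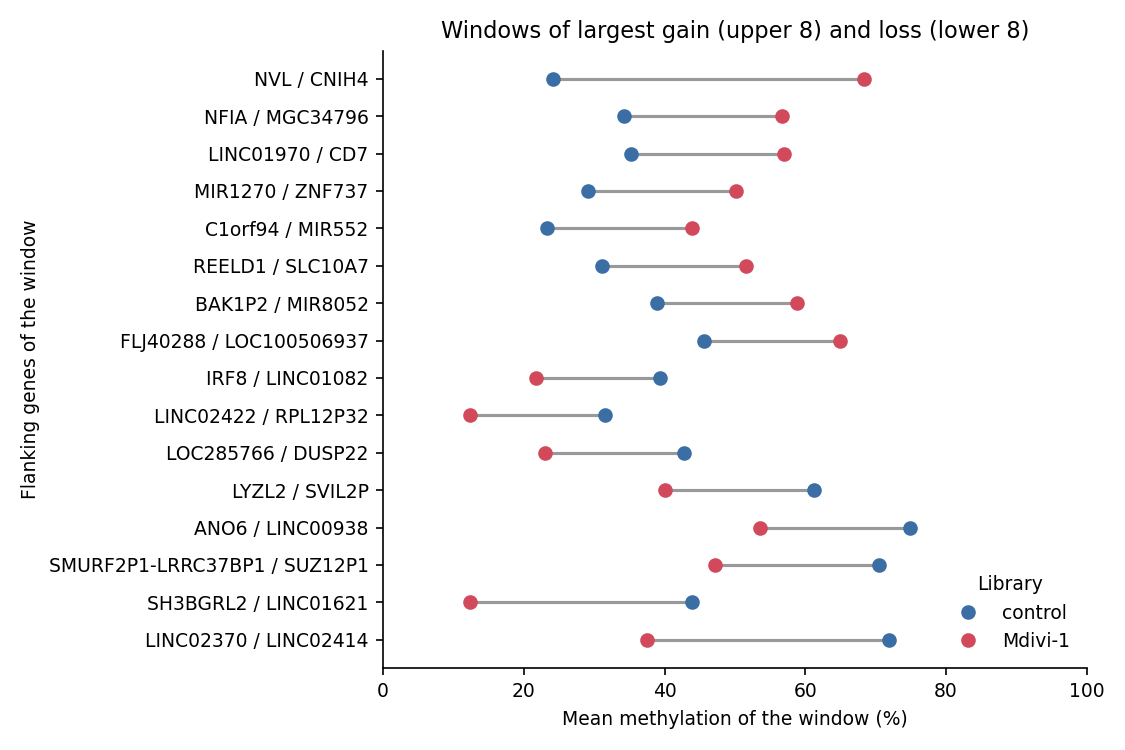
Mean methylation (percent) in the control (blue) and Mdivi-1 (red) libraries of the 8 windows that gained most and the 8 that lost most, named by their flanking genes. The gains reach from 44.1 points (NVL / CNIH4) to 19.3 points and the losses from -34.4 points (LINC02370 / LINC02414) to -17.6 points.

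Where reads were most plentiful the libraries were close. The window of highest coverage, between LDHBP1 and the lysosomal membrane gene LAMP1 (chromosome 13, 113933463 to 113933631), was at 91.3% with DMSO and 91.6% with Mdivi-1 over 12 CpGs, with mean coverage of 375 and 502 reads. Between LINC01874 and LINC01875 (chromosome 2, 522024 to 522446), 25 CpGs were at 58.9% and 60.4%. Between the serotonin receptor gene HTR5A and INSIG1, a sterol sensor gene (chromosome 7, 155079211 to 155079995), 19 CpGs were at 68.9% and 69.0%. Between the forkhead gene FOXF1 and RPL7AP63 (chromosome 16, 86556338 to 86556523), 6 CpGs were at 59.5% and 59.9%. Between CYB5D2 and ANKFY1 (chromosome 17, 4063497 to 4063696), 13 CpGs were at 94.2% and 95.4%. In none of these 5 windows did the difference exceed 1.53 points, and each lay within its counting error for shared reads. With reads pooled the FOXF1 window turned to -0.517 points and the HTR5A window was at 0.878 points.

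The 5 windows of lowest level had no methylated read in either library. They lay between PADI2, a protein arginine deiminase gene, and LINC02783 (chromosome 1, 17452400 to 17452505, 10 CpGs), TAF3 and GATA3-AS1 (chromosome 10, 8087073 to 8087190, 6 CpGs), NPM1P3 and LINC01570 (chromosome 16, 5540674 to 5540794, 10 CpGs), IGFBP4 and TNS4 (chromosome 17, 38617626 to 38617745, 5 CpGs) and TIMP2 and LGALS3BP (chromosome 17, 76932249 to 76932314, 5 CpGs). Summed over its CpGs, each window had 66 to 231 read calls per library. Taken as independent, 0 methylated calls allow up to 1.3% in the PADI2 window with DMSO, the lowest limit. The highest was 4.55%, in the TIMP2 window with either treatment. CpGs this close share reads, and mean coverage per CpG with DMSO was only 23.1 reads in the PADI2 window and 13.2 in the TIMP2 window. With shared reads the limits are therefore higher than these. GATA3, whose antisense gene GATA3-AS1 lies 5223 bp from the second of them, is a transcription factor of the adrenergic neuroblastoma program.

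Difference depended on level within the members. The 1827 windows with a mean level under 5% differed by 0.00352 points. The difference was 0.443 points at 20 to 40% and 0.762 points at 40 to 60%. It was 1.15 points for the 790 windows at 80 to 90% and 0.347 points for the 226 windows at 95% or more. The share of windows higher with Mdivi-1 was 51.1% in the lowest class, 57.5% at 40 to 60% and 66.2% at 90 to 95%. Windows were sorted on the mean of both libraries, and a window near 0 or 100% has little room to differ.

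Single members were compared by a two-sided Fisher exact test on reads, with Benjamini-Hochberg adjustment over all 2523728 CpGs of the table, which compares the 2 libraries and not the treatments. At an adjusted p under 0.05 and a difference of at least 20 points, 0 of 149693 members were called, against 16 CpGs of the table or 0.000634%, of which 0.000396% were higher and 0.000238% lower. Without the condition on size, 0 members were called too. Before adjustment 3750 members, or 2.51%, had a p under 0.05, 2256 of them higher and 1494 lower with Mdivi-1, against 2.02% of the table. The root mean square difference per member was 8.01 points, and 7.75 points would come from counting reads at equal levels.

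Windows were last grouped by whether their nearer gene belongs to lists that fit this cell line and treatment. The rule of size was met by 0 of 83 listed windows, against 1.60% of all 10113 windows. With so few listed windows, 0 cannot be told apart from that share. Over all 10113 windows the median difference was 0.362 points, with 5761 higher and 4337 lower. For regulators of the adrenergic neuroblastoma state, 9 of 21 genes were nearest to 13 windows, 8 higher and 5 lower, with a median of 1.095 points. The largest 2 have MYCN, an oncogene amplified in part of neuroblastomas, as their nearer gene and lie on the same side of it. One window 37668 bp from it (chromosome 2, 16124794 to 16124941) was at 54.7% with DMSO and 46.5% with Mdivi-1, and the other, at 18652 bp (16105778 to 16105905) at 42.6% and 50.1%. For mesenchymal state regulators, 17 windows had a median of 0.328 points, 10 higher and 7 lower. The window 3872 bp from TBX18, a T-box factor gene (chromosome 6, 85478188 to 85478544), was at 43.7% and 56.9% over 13 CpGs, 10 of them higher. It had the largest difference of any listed window, 13.1 points, with a shared-read error of 12.01 points. The window 25017 bp from JUN differed by -3.86 points.

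Few mitochondrial and stress genes had such windows. Fission and fusion genes had 6 windows, 3 higher and 3 lower, with a median of 0.00127 points. The largest 2, at 33238 and 46830 bp from OPA1, the gene of the inner membrane fusion GTPase, differed by -5.73 and 5.16 points. Antioxidant genes had 7 windows, 5 higher and 2 lower, with a median of 3.09 points. The largest 2 lay side by side on chromosome 6, with the mitochondrial superoxide dismutase gene SOD2 as their nearer gene, 66138 and 65908 bp away. They differed by 9.29 points (160023640 to 160023963) and -5.87 points (160024001 to 160024193). The integrated and unfolded protein stress response list had 13 CpGs and 0 windows of 5 members. Among DNA methylation enzymes 1 window was measured, 4274 bp from TET2, a 5-methylcytosine dioxygenase gene, at 88.2% with DMSO and 94.3% with Mdivi-1 with all 7 CpGs higher.

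Neural lists had medians of both sizes. Neural crest and neurodevelopment regulators had 13 windows, 7 higher and 6 lower, with a median of 0.0309 points. The largest lay 25614 bp from NEUROG1, a proneural factor gene, at 4.46 points, and 32266 bp from SOX9 at 3.85 points. The NEUROG1 window turned to -0.849 points at a minimum of 20 reads and was at 7.08 points with its reads pooled. Neuronal adhesion and axon guidance genes had 15 windows, 8 higher and 7 lower, with a median of 0.740 points. The largest were 2 windows with the cadherin gene CDH8 as their nearer gene, 372566 and 65310 bp away, at -6.78 and -5.11 points. Synapse and ion channel genes had 11 windows, 7 higher and 4 lower, with a median of 1.39 points. Its largest 2, at 40013 and 51818 bp from CSMD1, differed by 3.70 and -3.39 points, or 1.63 and -5.27 points with reads pooled. With so few windows in each list, the medians are a description only.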

How the data were processed

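DNA methylation was measured by methyl-capture bisulfite sequencing with the SureSelectXT Methyl-Seq kit, per the labels' protocols. BSMAP and hg19 are the aligner and build given, the former without a version, per the submitters' processing notes. The authors deposited 1 table of 2773807 positions with the methylated fraction and the coverage of each library. The deposited coverage columns are taken as estimated counts because 10751 positions are not whole. The deposited difference column was not used. Other filters of the authors are not given in the sources used here.

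The deposited control fraction was a whole number of reads, within a tolerance of 1e-06, at 33.3% of positions, but at 100% of them at 1.23 times the coverage, rounded; 37 and 30 reads, whose ratio this is, are the median coverages of the libraries. No label states this step, which was inferred from the values. Whole methylated reads were recovered as the single count that gives the deposited fraction when its ratio, taken to 3 decimals, is rescaled and rounded; 10760 positions (0.388%) were left out. Levels are means over CpGs. Counting errors are binomial, for independent CpGs from the pooled level of each, and for shared reads from the mean level and coverage of a window. Distances and flanking genes are those of the deposited annotation, and biotypes were matched by symbol or synonym to RefSeq genes of GRCh38.p14, used for names only. The shared-read and independent 95% intervals are 1.96 errors wide on each side, and reads may share a PCR origin.

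Named were the 8 windows of largest gain and of largest loss that met the rule of size, the 5 with most members, of lowest level and of highest coverage, the 3 lowest and 3 highest 1 Mb bins, and 2 windows per gene list; the 5 called CpGs per direction were to be named, but there were 0. The members, lists and rules were chosen with earlier results of these data known. Alternatives are given in the closing section. Scripts were tested on simulated data. Python 3.11.15 was used with SciPy 1.17.1 for tests, pandas 2.3.3 and NumPy 2.4.6 for tables, Matplotlib 3.10.9 for figures and Numba 0.67.0 for speed.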

Additional observations from a re-analysis of the deposited data

How the results depend on the processing

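The mean difference of 0.539 points became 0.357 points with all reads pooled and stayed between 0.521 and 0.646 points under the other 9 alternatives, 3 of which (fractional coverage included, minus strand only, without chromosome ends) were chosen after seeing the data. Under the 4 alternatives run per autosome, all 22 stayed positive except chromosome 9 with pooled reads, at -0.107 points, and pooled values of the others ran from 0.118 to 0.776 points; the cause was not tested. Windows that met the rule of size, higher and lower, numbered 65 and 31 at 20 reads, 284 and 191 with at least 3 CpGs, 18 and 10 with at least 10 CpGs, 15 and 14 at 15 points, and 6 and 5 at 20 points; a smaller number follows from fewer windows or a stricter size. The control level minus that of open-sea intronic CpGs was -23.8 points at 20 reads. The gap to intergenic shores and shelves was -1.98 points at 20 reads and -2.16 points pooled, and that to intergenic islands -1.24 points pooled. The library difference minus that of intergenic islands turned from 0.119 to -0.0503 points with pooled reads, and the cause was not tested. Pooling gave 9.76 points in place of 8.42 between the nearest and farthest distance class. Bins with at least 20 CpGs had an SD of 23.2 points for the level and 1.49 points for the difference, and pooled reads gave an SD of 1.59 points for the difference and 60.9% of bins higher. Depth limits single CpGs, since at 10 reads 1 read is worth 10 points. No paired analysis was possible because each group has 1 library.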
